A study of Mus musculus with 6 samples.

Results

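The genes described here encode the subunits of the mitochondrial respiratory chain and ATP synthase that lie in the nuclear genome, as measured by total RNA sequencing of mouse primary cortical neurons. They were chosen by symbol: names of the forms Ndufa, Ndufb, Ndufc, Ndufs and Ndufv with a number, the 4 Sdh genes, names starting with Uqcr, Cox4 to Cox8 or Atp5, and Cyc1. Of 98 matching symbols, 8 that end in -ps were left out, which gave 90 genes of the 55385 in the files. These are 40 of complex I, 4 of complex II, 9 of complex III, 19 of complex IV and 18 of complex V, assigned by name. The group was put forward with results of the same comparison already known, so its counts and fold changes below are a description, and nothing is read from how many of its genes passed a test.

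Cortical cells were taken from embryos at embryonic day 18 and grown for 16 days on coated plates, with AraC, an inhibitor of dividing cells, added to every culture at 2.5 µM for 24 hours from day 2. Per the labels, in 3 samples labelled activated KCl, which depolarises neurons, was then applied for 5 minutes, followed by washing and 30 minutes of recovery in conditioned medium. The other 3 samples, labelled control, are described in the labels as untreated with KCl. One label field gives its concentration as 50 mM and another as 50 µM, and the strain is not named. Nothing in the labels says whether the 3 samples of a group came from separate cultures or litters, and a p-value here speaks only of the spread among these 6, which may be technical.

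Complex I (NADH dehydrogenase) and complex II (succinate dehydrogenase) pass electrons from NADH and succinate to coenzyme Q. Complex III (the cytochrome bc1 complex) passes them on to cytochrome c, and complex IV (cytochrome c oxidase) to oxygen. Complexes I, III and IV pump protons as they do so, and complex V (ATP synthase) uses the proton gradient to make ATP. A few core subunits of complexes I, III, IV and V are encoded by mitochondrial DNA, and all other subunits by nuclear genes. Neurons depend heavily on this route for the ATP that ion pumping and synaptic transmission use.

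The libraries held 17752711 to 32919975 reads assigned to genes. The labels were checked with 10 activity-induced genes, among them Arc, Npas4, Fosb and Egr4. All 10 were lower in the libraries labelled activated by edgeR's quasi-likelihood test with Benjamini-Hochberg adjustment over all genes. Their median of -1.65 on the log2 scale goes against the label. The groups are therefore called by their labels throughout. Whether titles or files were exchanged cannot be told from these files, and if they were, every direction, count of lower or higher genes and order of fold changes given here would turn. Of 16 excitatory neuron markers 8 were lower and 1, Camk2a, was higher, and their summed level was 2389 to 2506 CPM, read counts scaled by library size, in control and 2512 to 2706 CPM in activated libraries. Of 18 inhibitory neuron markers 11 were lower, with sums of 3343 to 3436 and 2597 to 2888 CPM. Of all tested genes, 20.6% were lower and 16.2% higher. Among markers of other cells, those that passed were all higher. For astrocytes 14 of 15 tested markers were higher, with sums of 1489 to 1539 and 1981 to 2427 CPM. For microglia 7 of 13 were higher, at 64.2 to 87.2 and 78.5 to 145 CPM, but 12 of the 13 overlapped between groups. For endothelial, mural and fibroblast cells 8 of 13 were higher, at 241 to 269 and 377 to 435 CPM. For the oligodendrocyte lineage 4 of 8 were higher, at 62.7 to 67.2 and 80.5 to 91.6 CPM, with Gpr17 at 0 in every library. The part of these shifts in the results on respiratory genes was not tested.

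Messenger RNA for the nuclear-encoded subunits took up a smaller share of the libraries labelled activated. The summed level of the 81 genes that were tested was 5523, 5824 and 5472 CPM in control replicates 1, 2 and 3. It was 4533, 4267 and 4445 CPM in activated replicates 1, 2 and 3. The 2 ranges did not overlap. CPM values here are scaled by the trimmed mean of M values (TMM). As a plain share of all gene reads, all 90 genes held 0.561%, 0.598% and 0.562% in control and 0.429%, 0.429% and 0.433% in activated libraries. All gene reads include those of the mitochondrial chromosome, at 14.7% to 17.1% in control and 21.3% to 25.0% in activated libraries. A larger mitochondrial share lowers that of all other genes. Among the controls, replicate 2 was the highest for most members, with the top value of all 6 libraries in 52 of the 81 tested genes. Activated replicate 2 had the lowest value of all 6 libraries in 42 of the 81. In bulk RNA, fewer cells of a type and less RNA per cell cannot be told apart.

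**Figure D1:**
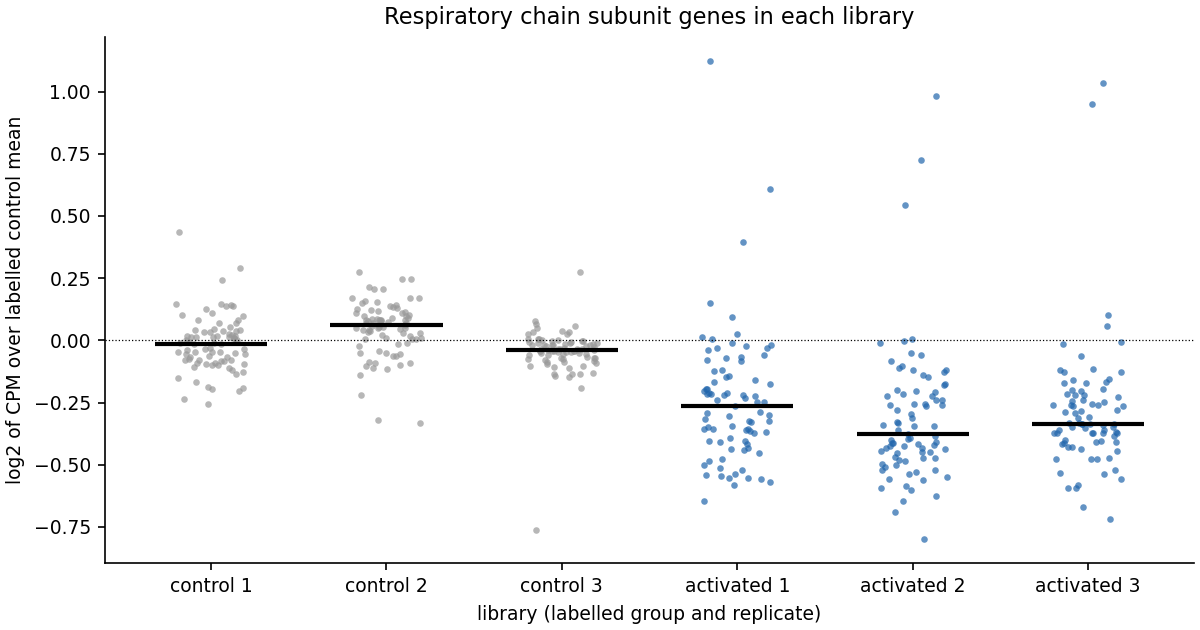
Log2 of the TMM-scaled CPM over the mean of the 3 control libraries, for each of the 81 tested members (points) in each of the 6 libraries, with a black bar at the median. The bars lie at -0.01, 0.06 and -0.04 in the controls and at -0.26, -0.38 and -0.33 in the activated libraries. This gap shrinks with scaling to neuron markers, where the median fold change is -0.03 for the members and 0.35 for all genes tested.

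Of the 90 genes, 81 passed the filter on low counts. Among these, 58 were lower and 2 higher in the libraries labelled activated (edgeR, adjusted p below 0.05 over all 18132 genes tested) and 21 did not pass, where 20.6% of all tested genes were lower and 16.2% higher. Of the tested protein-coding genes, 25.7% were lower. The median log2 fold change was -0.33, against 0.04 over all tested genes and -0.01 over protein-coding genes. But when the neuron markers set the size factors in place of TMM, only 9 members were lower, 10 were higher and their median was -0.03. Over all 18132 tested genes 649 were then lower and 8740 higher, with a median of 0.35. All 3 activated libraries lay below all 3 controls for 62 members and above them for 2, against 26.4% and 22.6% of all tested genes. The remaining 17 overlapped. Of the 21 genes that did not pass, 5 had groups that did not overlap, all with the activated libraries below: Ndufa7, Ndufb11, Cox6a2, Cox7a2 and Cox7c. Ndufb9 passed although its lowest control, at 19.6 CPM, lay below its highest activated value, at 19.8 CPM. Nearest to the threshold were Cox5b on the passing side, at -0.19 ± 0.07, and Ndufa7 on the other, at -0.18 ± 0.07 (log2 fold change ± SE). Replicates were close, with a median coefficient of variation of 6.38% in control and 5.82% in activated libraries.

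**Figure D2:**
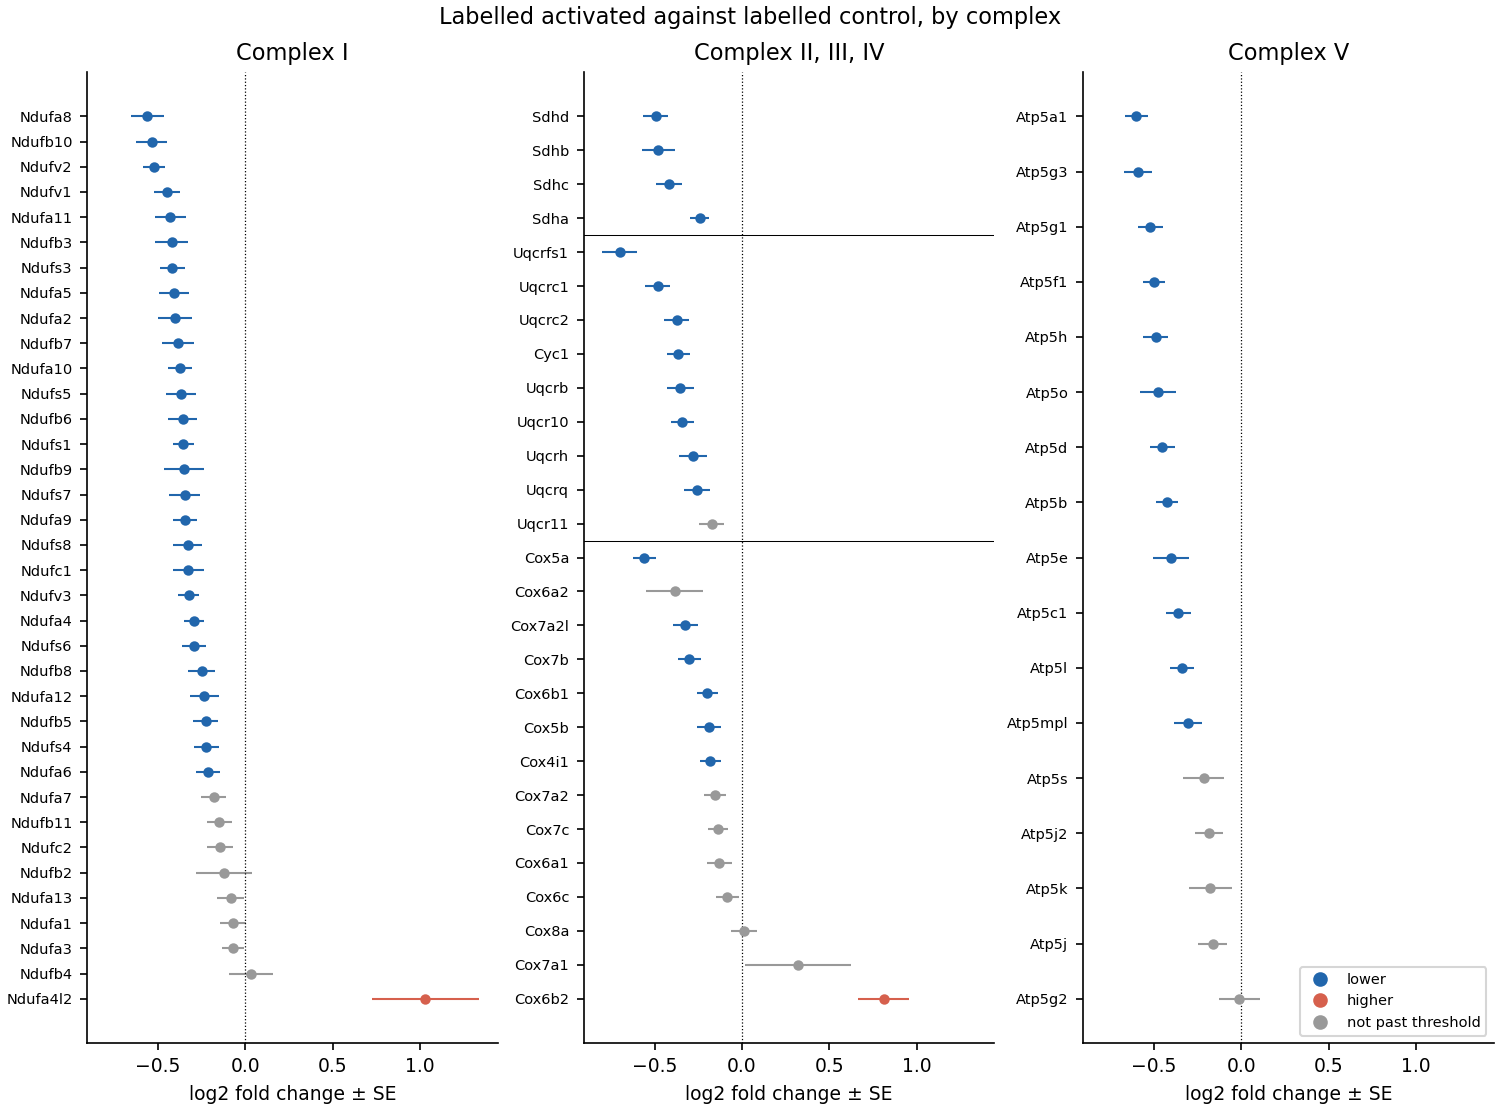
Log2 fold change (activated over control, TMM scaling) of tested members with their standard errors, in panels for complexes I, II to IV and V, with blue for lower, red for higher and grey for not past the threshold. The lowest is Uqcrfs1 at -0.70 and the 2 highest are Ndufa4l2 at 1.03 and Cox6b2 at 0.81. With scaling to neuron markers the members' median moves from -0.33 to -0.03, and that of all genes tested from 0.04 to 0.35.

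The 9 genes that were not tested had almost no reads. Cox8c and a second identifier named Atp5o had none in any library, and Cox4i2, the most covered, had 33 in all 6 together. The others were Cox7b2 with 14 reads, Cox8b with 6, and the processed pseudogenes Ndufa11b, Ndufb4c, Cox6c2 and Ndufs6b with 13, 10, 8 and 6. Cox8c, Cox7b2 and Cox8b encode isoforms known from testis or from heart and skeletal muscle, and Cox4i2 one known from lung.

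RefSeq promoter windows of 300 bases, from 250 before to 50 after the gene start, were available for 66 of the 81 tested members. They are shown for the member with the lowest fold change in each complex among those that have a window, and for Cox6b2, which was higher. Atp5a1 was lower still in complex V and has no window in the table. The words searched, on both strands, stand for factors known to bind promoters of respiratory genes: GCGCA, any base and GCGC for NRF1, CCGGAAG for ETS factors such as GABP, and AANATGGC for YY1. Capitals mark a match to any of these. Sequences run 5′ to 3′ on the gene's strand in GRCm38.p6, the build also called mm10. The windows are chr2:36049289-36049588 on the minus strand for Ndufa8, chr9:50603800-50604099 on the minus strand for Sdhd and chr13:30545267-30545566 on the minus strand for Uqcrfs1. For Cox5a the window is chr9:57520982-57521281 on the plus strand, for Atp5g3 chr2:73911277-73911576 on the minus strand, and for Cox6b2 chr7:4753045-4753344 on the minus strand.
Ndufa8: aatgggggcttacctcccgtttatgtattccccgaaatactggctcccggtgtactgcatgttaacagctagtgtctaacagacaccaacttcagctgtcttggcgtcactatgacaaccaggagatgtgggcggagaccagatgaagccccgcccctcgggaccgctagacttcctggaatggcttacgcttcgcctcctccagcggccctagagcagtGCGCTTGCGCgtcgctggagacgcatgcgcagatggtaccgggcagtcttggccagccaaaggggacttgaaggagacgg
Sdhd: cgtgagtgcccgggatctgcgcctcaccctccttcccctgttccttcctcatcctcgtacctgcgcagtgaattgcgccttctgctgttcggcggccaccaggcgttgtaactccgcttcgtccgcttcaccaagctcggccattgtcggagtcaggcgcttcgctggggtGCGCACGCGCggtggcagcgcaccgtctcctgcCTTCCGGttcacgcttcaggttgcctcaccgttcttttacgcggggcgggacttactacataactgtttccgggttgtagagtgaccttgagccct
Uqcrfs1: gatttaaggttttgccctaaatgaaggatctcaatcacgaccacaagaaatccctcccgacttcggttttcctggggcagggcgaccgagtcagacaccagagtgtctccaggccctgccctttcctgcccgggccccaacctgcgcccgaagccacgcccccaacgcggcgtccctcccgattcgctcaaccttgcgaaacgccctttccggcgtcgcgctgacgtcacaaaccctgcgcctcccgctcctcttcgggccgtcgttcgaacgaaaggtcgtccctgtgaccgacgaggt
Cox5a: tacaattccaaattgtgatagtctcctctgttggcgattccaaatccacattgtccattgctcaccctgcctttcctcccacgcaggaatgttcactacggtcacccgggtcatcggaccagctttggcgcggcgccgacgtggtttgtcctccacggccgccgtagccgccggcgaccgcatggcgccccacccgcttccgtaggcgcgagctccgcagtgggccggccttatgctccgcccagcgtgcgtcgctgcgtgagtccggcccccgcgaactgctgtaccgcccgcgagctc
Atp5g3: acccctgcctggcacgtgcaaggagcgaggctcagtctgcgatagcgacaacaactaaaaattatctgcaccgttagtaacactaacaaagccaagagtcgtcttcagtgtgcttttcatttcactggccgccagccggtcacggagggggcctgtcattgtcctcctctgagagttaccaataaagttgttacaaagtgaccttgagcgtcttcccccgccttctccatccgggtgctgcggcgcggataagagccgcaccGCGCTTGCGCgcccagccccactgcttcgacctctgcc
Cox6b2: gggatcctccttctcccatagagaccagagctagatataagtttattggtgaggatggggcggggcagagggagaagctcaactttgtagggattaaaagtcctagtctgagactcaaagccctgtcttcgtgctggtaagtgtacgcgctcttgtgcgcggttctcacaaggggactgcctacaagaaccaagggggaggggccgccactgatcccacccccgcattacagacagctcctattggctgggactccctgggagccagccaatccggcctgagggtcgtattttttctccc
The windows of Ndufa8 and Atp5g3 each hold 1 NRF1 word, and that of Sdhd holds 1 NRF1 word and 1 ETS word. None of the 3 words is in those of Uqcrfs1, Cox5a or Cox6b2. Of the 66 members, 17 (25.8%) had a window with the NRF1 word, 16 (24.2%) with the ETS word and 17 (25.8%) with the YY1 word. At least 1 of the 3 words was found for 43 (65.2%). Over all 11872 tested genes with a window these shares were 10.5%, 17.9%, 9.16% and 32.1%. The word TATAAA was found for 7.58% of these members and 9.41% of all tested genes with a window. A gene with more than 1 window was counted if any of them held the word. Among the 46 members with a window that were lower, 69.6% held at least 1 of the 3 words, and among the other 20 it was 55%. A match says only that the letters are there and is not evidence of binding.

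Complex I has the most members, and 28 of its 37 tested genes were lower, 1 was higher and 8 did not pass. The median was -0.33 on the log2 scale and became -0.03 with scaling to neuron markers. Its 7 core genes, which encode the nuclear-encoded subunits that carry out electron transfer, all passed as lower, between -0.52 and -0.33. Ndufv2, an iron-sulphur subunit of the NADH-oxidising module, was measured at 75.7, 79.2 and 71.7 CPM in the controls and 51.8, 51.2 and 54.3 CPM in the activated libraries. The groups did not overlap, and the log2 fold change was -0.52 ± 0.06 (SE). Among other core genes were Ndufv1, which encodes the flavin-binding subunit (-0.45), Ndufs1 (-0.35), and Ndufs3, Ndufs7 and Ndufs8 of the arm that hands electrons to coenzyme Q (-0.42, -0.35 and -0.33).

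The accessory genes of complex I, whose products surround the core, were spread more widely. Of 28, 20 were lower and 8 did not pass, and the middle value was -0.31. Ndufa8 (chr2:36036326-36049406 in mm10), whose promoter window is given above, encodes an accessory subunit on the intermembrane space side. It stood at 38.5, 51.1 and 42.6 CPM in the controls and 32.4, 28.2 and 29.2 CPM in the activated libraries, the lowest fold change of the complex at -0.56 ± 0.10. Control replicate 2 was well above the other controls, and no activated library reached the lowest control. Ndufb10, another accessory subunit of the membrane arm, gave 22.9, 28.3 and 27.3 CPM and 18.3, 18.5 and 17.3 CPM in the same order of groups, a log2 fold change of -0.54 ± 0.09 with no overlap. At the other end was Ndufb4, also of the membrane arm, at 16.9, 11.1 and 13.5 CPM in control and 15.4, 13.7 and 13.7 CPM in activated libraries. Its groups overlapped fully, its control libraries spread more than its activated ones, and its fold change was 0.03 ± 0.13. The other accessory genes that did not pass were Ndufa1, Ndufa3, Ndufa7, Ndufa13, Ndufb2, Ndufb11 and Ndufc2, between -0.18 and -0.07. Of these, Ndufb2 had the fewest reads, at 5.94 CPM in the controls.

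All 4 genes of complex II, which is also an enzyme of the citric acid cycle, were lower, with a median of -0.45. Scaled to neuron markers that median was -0.15 and 1 of the 4, Sdhd, was lower. Sdha, the flavoprotein that oxidises succinate, was measured at 172, 175 and 173 CPM in the controls and 147, 147 and 145 CPM in the activated libraries. Both groups were tight and apart, and its log2 fold change of -0.24 ± 0.06 was the smallest of the complex and turned to 0.06 with marker scaling. Sdhb, the iron-sulphur subunit that pairs with it, stood at 50.9, 66.9 and 56.1 CPM and 43.8, 37.6 and 43.4 CPM, a fold change of -0.48 ± 0.09. As for Ndufa8, control replicate 2 was the highest and activated replicate 2 the lowest. The membrane anchors Sdhc and Sdhd hold the haem and the coenzyme Q site. Sdhc was measured at 56.4, 62.5 and 51.8 CPM in control and 42.7, 41.0 and 43.9 CPM in activated libraries, with a fold change of -0.42 ± 0.07. Sdhd (chr9:50596357-50603812) had nearly the same value in every control, at 45.9, 45.0 and 45.5 CPM, against 31.3, 30.2 and 35.1 CPM in the activated libraries. At -0.50 ± 0.07 it had the lowest fold change of the 4, and its groups lay far apart.

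In complex III 8 of 9 genes were lower and the median was -0.35, or -0.05 with scaling to neuron markers, where 1 gene, Uqcrfs1, was lower. Uqcrfs1 (chr13:30540308-30545362), the Rieske iron-sulphur protein, had the lowest fold change of all members. It was measured at 41.2, 53.6 and 40.9 CPM in the controls and 28.9, 26.0 and 28.4 CPM in the activated libraries. The highest activated library was well below the lowest control, and the log2 fold change was -0.70 ± 0.10, or 61.5% of control. Cyc1, the other redox subunit, which carries the haem that reduces cytochrome c, had a fold change of -0.36 ± 0.07. The core proteins Uqcrc1 and Uqcrc2 face the matrix. Uqcrc1 gave 124, 148 and 127 CPM in control and 97.3, 90.5 and 98.0 CPM in activated libraries, a log2 fold change of -0.48 ± 0.07. For Uqcrc2 the values were 119, 125 and 117 CPM and 101, 82.8 and 94.3 CPM, or -0.37 ± 0.07. Neither overlapped between groups, and in both activated replicate 2 was the lowest library. Among 5 small subunits 4 were lower, with a median of -0.28. Uqcrq, which supports the cytochrome b subunit, was at 76.6, 83.5 and 78.5 CPM in control and 69.0, 59.7 and 70.9 CPM in activated libraries, a fold change of -0.26 ± 0.07 that turned to 0.04 with marker scaling. Without control replicate 2 or activated replicate 2 it no longer passed (edgeR adjusted p 0.0588 and 0.0510). Uqcr11, another small subunit, did not pass: its values were 62.2, 52.3 and 55.1 CPM and 49.3, 52.6 and 48.5 CPM, and activated replicate 2 lay above control replicate 2.

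In complex IV 6 of 14 tested genes were lower, 1 was higher and 7 did not pass. Its median of -0.17 turned to 0.13 with scaling to neuron markers, where that of all tested genes was 0.35. The count of lower genes was 3 without control replicate 1 or without activated replicate 2, and 4 without control replicate 2 or 3. Cox5a (chr9:57521274-57532426), a matrix-side subunit, had the lowest fold change and kept it under marker scaling, at -0.26. It was measured at 62.5, 70.5 and 65.6 CPM in the controls and 44.6, 45.8 and 44.3 CPM in the activated libraries. These groups were tight and far apart, with a log2 fold change of -0.56 ± 0.06. Cox7b followed among the general subunits at -0.30 ± 0.07, then Cox6b1, Cox5b and Cox4i1 between -0.20 and -0.18. Cox6c, Cox7c, Cox6a1, Cox7a2 and Cox8a, all general subunits, did not pass. Cox8a, a small membrane subunit, stood at 136, 114 and 118 CPM in control and 131, 119 and 122 CPM in activated libraries, with groups that overlapped and a fold change of 0.01 ± 0.07.

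In complex V 12 of 17 tested genes were lower and 5 did not pass. The median was -0.41 and became -0.10 under marker scaling, where 4 were lower and Atp5g2 was higher. The F1 head, where ATP is made, had all 5 of its genes lower, between -0.60 and -0.36. Atp5a1, its alpha subunit, was measured at 521, 565 and 531 CPM in the controls and 360.4, 334 and 371 CPM in the activated libraries. The groups were far apart and the log2 fold change was -0.60 ± 0.07. Atp5b, the catalytic beta subunit and the most abundant member in CPM, fell from 626 ± 21.6 to 465 ± 15.3 CPM (mean ± SD, n = 3), a fold change of -0.43 ± 0.06. Of the peripheral stalk, which holds the head still, Atp5f1 (-0.50), Atp5h (-0.49) and Atp5o (-0.48) were lower. Atp5j, which encodes coupling factor F6 of the same stalk, gave 28.9, 26.6 and 26.5 CPM in control and 27.0, 23.8 and 22.8 CPM in activated libraries, did not pass at -0.16 ± 0.08, and overlapped between groups. Of the membrane subunits around the ring, Atp5l (-0.34) and Atp5mpl (-0.31) were lower, and Atp5j2 (-0.19) and Atp5k (-0.18) did not pass. Atp5s, a coupling factor and not a fixed subunit, did not pass at -0.22.

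The 3 genes Atp5g1, Atp5g2 and Atp5g3 encode the same mature c subunit of the proton-driven ring with different import sequences. Atp5g3 (chr2:73908447-73911326) was measured at 74.8, 89.0 and 87.9 CPM in the controls and 57.1, 59.0 and 50.9 CPM in the activated libraries, a log2 fold change of -0.59 ± 0.08. For Atp5g1 the values were 93.4, 97.9 and 86.2 CPM and 63.5, 61.0 and 68.7 CPM, or -0.52 ± 0.07. Neither gene overlapped between groups. Atp5g2, in contrast, stood at 30.9, 20.8 and 26.8 CPM and 26.4, 23.6 and 28.1 CPM, with full overlap and a fold change of -0.01 ± 0.12 that turned to 0.29 with marker scaling. Per kilobase of merged exons the control level was 38.5 ± 3.62 for Atp5g3, 18.8 ± 1.20 for Atp5g1 and 15.6 ± 3.04 CPM for Atp5g2 (SD, n = 3), and the mean ± SD ranges of Atp5g1 and Atp5g2 overlapped. Per kilobase of the principal transcript the 3 levels were 116, 19.6 and 35.8 CPM, which puts Atp5g2 above Atp5g1, so the order of these 2 genes depends on the length used. The difference in fold change between the 3 genes was not tested, and Atp5g2 shares exonic bases with a microRNA gene, Mir688.

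Several subunits of complex IV have a form found in most tissues and a form known from particular ones, such as muscle, testis or lung. Cox6b1 and Cox6b2 bind on the intermembrane space side, and Cox6b2 is the form known from testis. Cox6b2 (chr7:4751792-4753094) was measured at 4.59, 3.85 and 4.08 CPM in the controls and 6.37, 6.90 and 8.56 CPM in the activated libraries. Every activated library was above every control, with replicate 3 the highest, and the log2 fold change was 0.81 ± 0.15, or 176% of control. It passed as higher in all 15 alternative fits, between 0.67 and 1.12. Cox6b1 went the other way, at 145, 151 and 139 CPM and 129.8, 121 and 129 CPM, a fold change of -0.20 ± 0.06 that turned to 0.10 with marker scaling. It did not pass without control replicate 1 (edgeR adjusted p 0.0532), control replicate 2 (0.0943) or activated replicate 2 (0.0590). Per kilobase, Cox6b1 stayed far above Cox6b2 in both groups, at 205 against 3.77 CPM in control and 179 against 6.57 CPM in activated libraries.

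Cox6a1 and the muscle form Cox6a2 both failed to pass. Cox6a1 stood at 117, 134 and 116 CPM in control and 117, 113 and 106 CPM in activated libraries, with overlap, and -0.13 ± 0.07 on the log2 scale. Cox6a2 gave 4.17, 3.85 and 3.31 CPM and 2.80, 2.91 and 2.92 CPM. Its activated libraries were all below its controls, with a log2 fold change of -0.39 ± 0.16, and per kilobase it was at 5.55 CPM in control against 174 CPM for Cox6a1. The Cox7a genes encode alternative forms of a small subunit at the edge of the complex, and Cox7a2l joins complexes III and IV into supercomplexes. Cox7a2 was measured at 65.6, 58.4 and 63.6 CPM in control and 57.6, 55.2 and 56.0 CPM in activated libraries, which did not overlap but did not pass at -0.15 ± 0.06. Cox7a2l was lower, with 44.0, 49.5 and 45.3 CPM and 37.0, 34.3 and 39.5 CPM and a fold change of -0.32 ± 0.07. Its groups were separate. The muscle form Cox7a1 was near the limit of the filter, at 0.601, 0.466 and 0.562 CPM and 0.714, 0.79 and 0.565 CPM, with overlap and a log2 fold change of 0.32 ± 0.30.

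Cox4i1, the largest nuclear-encoded subunit of complex IV and the one that binds regulatory nucleotides, was at 211, 207 and 200.0 CPM in control and 189, 177 and 179 CPM in activated libraries. The groups did not overlap, but the fold change of -0.18 ± 0.06 turned to 0.12 with marker scaling. It also failed to pass in 4 of the 6 fits that left out a library, those without control replicate 1, 2 or 3 (edgeR adjusted p 0.0960, 0.0833 and 0.0513) or activated replicate 2 (0.0575), and with offsets for length and GC content, where its fold change was -0.11 (edgeR adjusted p 0.1555). Its paralogue Cox4i2 had 3, 5 and 4 reads in the controls and 2, 7 and 12 in the activated libraries, too few to compare. Likewise Cox8b had 6 reads in all, against 122.9 CPM for Cox8a in control.

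Ndufa4 and Ndufa4l2 are paralogues that carry a complex I name. The protein of Ndufa4 has since been placed in complex IV, and Ndufa4l2 is known to be induced by hypoxia. Ndufa4 was measured at 112, 111 and 109 CPM in the controls and 90.8, 87.5 and 92.7 CPM in the activated libraries. Replicates were tight and the groups apart, but the fold change of -0.30 ± 0.06 was 0.00 with marker scaling. Ndufa4l2 (chr10:127514967-127517154) rose from 0.812, 0.635 and 0.355 CPM in the controls to 1.31, 1.19 and 1.16 CPM in the activated libraries. All activated libraries were above all controls, and its fold change of 1.03 ± 0.31 was the highest of the members, on few reads and with the widest control spread, 38.4% of the mean. It did not pass with unstranded counts (0.80, edgeR adjusted p 0.0651) or without control replicate 3, its lowest control (0.73, adjusted p 0.0992). Per kilobase Ndufa4 stood at 80.3 CPM and Ndufa4l2 at 0.549 CPM in control, and at 65.4 and 1.11 CPM in activated libraries.

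**Figure D3:**
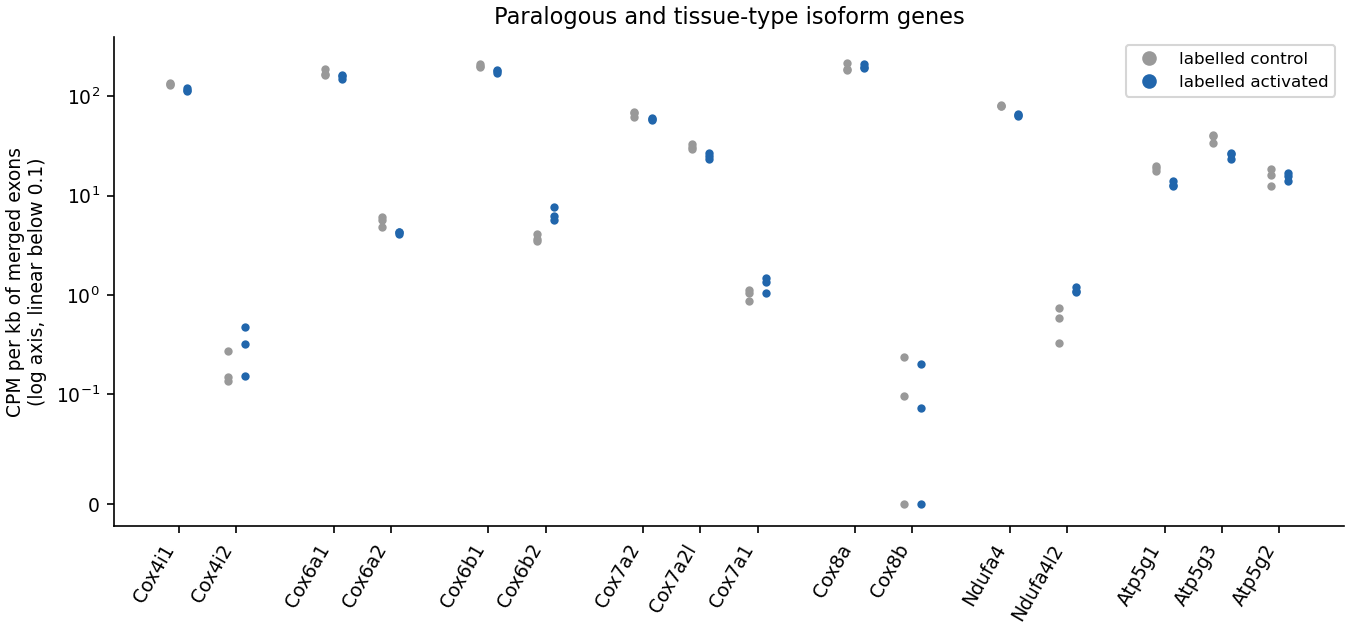
Level of the isoform genes in CPM per kilobase of merged exons (log axis, linear below 0.1), with grey points for the 3 control and blue points for the 3 activated libraries (TMM scaling). Cox6b2 and Ndufa4l2 lie higher in the activated libraries while Cox6b1 and Ndufa4 lie lower, and with scaling to neuron markers Cox6b1 turns to 0.10 and Ndufa4 to 0.00 on the log2 scale.

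Levels per kilobase of merged exons were compared among the controls, leaving out the tissue-type forms and Cox7a2l of complex IV, Ndufa4l2 (0.549 CPM) and the coupling factor Atp5s (4.08 CPM). They ran from 1.06 CPM for Ndufb2 to 80.3 for Ndufa4 in complex I, and from 17.5 for Sdhc to 42.0 for Sdha in complex II. Ndufa4 is counted here by its name, and without it the highest of complex I was Ndufc2 at 57.0. In complex III the range was 32.2 for Uqcrc1 to 91.6 for Uqcr10. General subunits of complex IV ran from 24.1 for Cox6c to 205 for Cox6b1, and complex V from 8.44 for Atp5o to 172 for Atp5a1. The order depends on the length used. With the length of the principal transcript, an alternative chosen after seeing the data, Uqcrfs1 was the lowest in complex III at 33.2 CPM per kilobase, Cox4i1 the highest in complex IV at 269 and Atp5b the highest in complex V at 326. The highest level over the lowest was then 3.33 in complex II, 3.83 in III and 3.45 in IV, against 2.4, 2.84 and 8.49 with merged exons. It was 134 in complex I and 16.6 in V, against 76.1 and 20.4. Both values of complex I have Ndufa4 as the highest. Without it the highest per principal transcript was Ndufa3 at 86.6. Ndufb2, the lowest of complex I with either length, is annotated with 5628 bases of merged exons and a principal transcript of 4371 bases. It also overlaps a predicted transcript on the same strand, so its level is uncertain.

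The tested members are short and abundant. Their median principal transcript was 823.5 bases against 2975 over all tested genes, and their median level was 41.6 against 10.5 CPM. Median GC content of the longest transcript was 50.29% and 48.65%. Across the 81 members the log2 fold change had a Pearson r of -0.52 with log2 mean CPM (Spearman -0.19) and of -0.24 with log2 merged exon length (Spearman -0.27). Over all tested genes these r values were -0.38 and -0.08. Genes are not independent replicates, they share the 6 libraries, and both quantities in the first pair contain the same counts, so these values only describe the members. With offsets for transcript length and GC content 55 members were lower, 54 of them among the 58 above, 2 were higher, and the median was -0.29.

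Mitochondrially encoded subunits of the same complexes did not move with the nuclear-encoded ones. Of 13 genes 11 were tested, 9 were higher and 2 did not pass, where 16.2% of all tested genes were higher. The median log2 fold change was 0.50, against 0.04 over all tested genes. Groups overlapped for 5 of the 11. For 6 all activated libraries lay above all controls, against 22.6% of all tested genes. Their summed level was 11818 to 18614 CPM in control and 21583 to 27850 CPM in activated libraries. The largest, mt-Co1, the catalytic subunit of complex IV, was at 8105 ± 1688 and 13164 ± 1458 CPM (mean ± SD, n = 3), a fold change of 0.70 ± 0.13 (edgeR adjusted p 0.00106). For mt-Nd5, a proton-pumping subunit of complex I, the fold change was 0.69 ± 0.15 (edgeR adjusted p 0.00269). All transcripts of the mitochondrial chromosome together took up 17.1%, 14.7% and 16.4% of gene reads in control and 25.0%, 23.0% and 21.3% in activated libraries. With libraries scaled by total gene counts alone, which include these transcripts, the median of the nuclear-encoded members was -0.40. The part of the mitochondrial share in that value was not tested.

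Among genes that act with the chain, most carriers and citric acid cycle enzymes tested were lower. The lists were put together with earlier results in view. Their counts stand beside shares of 20.6% lower and 16.2% higher among all tested genes. Among tested protein-coding genes 25.7% were lower. Of 17 genes of pyruvate dehydrogenase and the citric acid cycle 15 were lower and Suclg2 was higher (0.66, edgeR adjusted p 0.00182, named after its value was seen), with a median of -0.43. Mdh2, malate dehydrogenase, stood at -0.63 and Idh3a, a subunit of isocitrate dehydrogenase, at -0.56. The list of 8 carriers and porins also holds the mitochondrial creatine kinase gene Ckmt1. All 7 of its genes that were tested were lower, with a median of -0.55. They include the ADP/ATP carriers Slc25a4 (-0.60, edgeR adjusted p 4.06e-05) and Slc25a5 (-0.55, 2.96e-05), which bring ADP to complex V. In the list of cytochrome c and coenzyme Q synthesis 7 of 14 were lower, with Cycs, cytochrome c itself, at -0.48, and Pdss1 of the coenzyme Q side chain was higher at 0.43 (edgeR adjusted p 0.0137, also named after its value was seen).

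Assembly factors put the subunits together without staying in the complex. The counts below stand beside a share of 25.7% lower among all tested protein-coding genes. For complex I, 7 of 15 tested factors were lower, with a median of -0.22, and for complexes II and III 3 of 10, with a median of -0.16. The latter were Sdhaf1 (-0.51) and Sdhaf4 (-0.61) of complex II and, named after its value was seen, Uqcc3 of complex III (-0.52). In complex IV 7 of 19 factors were lower, led by Coa3 (-0.58, edgeR adjusted p 0.000166), and Cox17, the copper chaperone, was higher at 0.73 (adjusted p 0.0019). Of 4 factors for complex V, Atpaf1 was lower at -0.42. Subunit genes that the naming rule misses gave 3 lower of 4 tested: the complex I carrier protein Ndufab1 (-0.30), Usmg5 of complex V (-0.34) and, named after its value was seen, the ATP synthase inhibitor Atpif1 (-0.28). Among 16 regulators of respiratory gene transcription and mitochondrial DNA 5 were lower and 11 did not pass, and the median was -0.13. Their share of lower genes, 31.2%, was near the 25.7% of protein-coding genes, as was the 30% of complex II and III factors. Esrrg, an oestrogen-related nuclear receptor, was lower at -0.84 (edgeR adjusted p 3.2e-05) and its coactivator Ppargc1a at -0.59 (6.12e-05). The other 3, named after their values were seen, were Tfam, which packages mitochondrial DNA (-0.51), Esrra (-0.33) and Yy1 (-0.23). In all, 55 of 117 tested genes of these lists were lower and 12 higher, of which 9 were mitochondrially encoded. Scaled to neuron markers the counts were 14 and 30, beside 649 lower and 8740 higher of all 18132 tested genes.

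**Figure D4:**
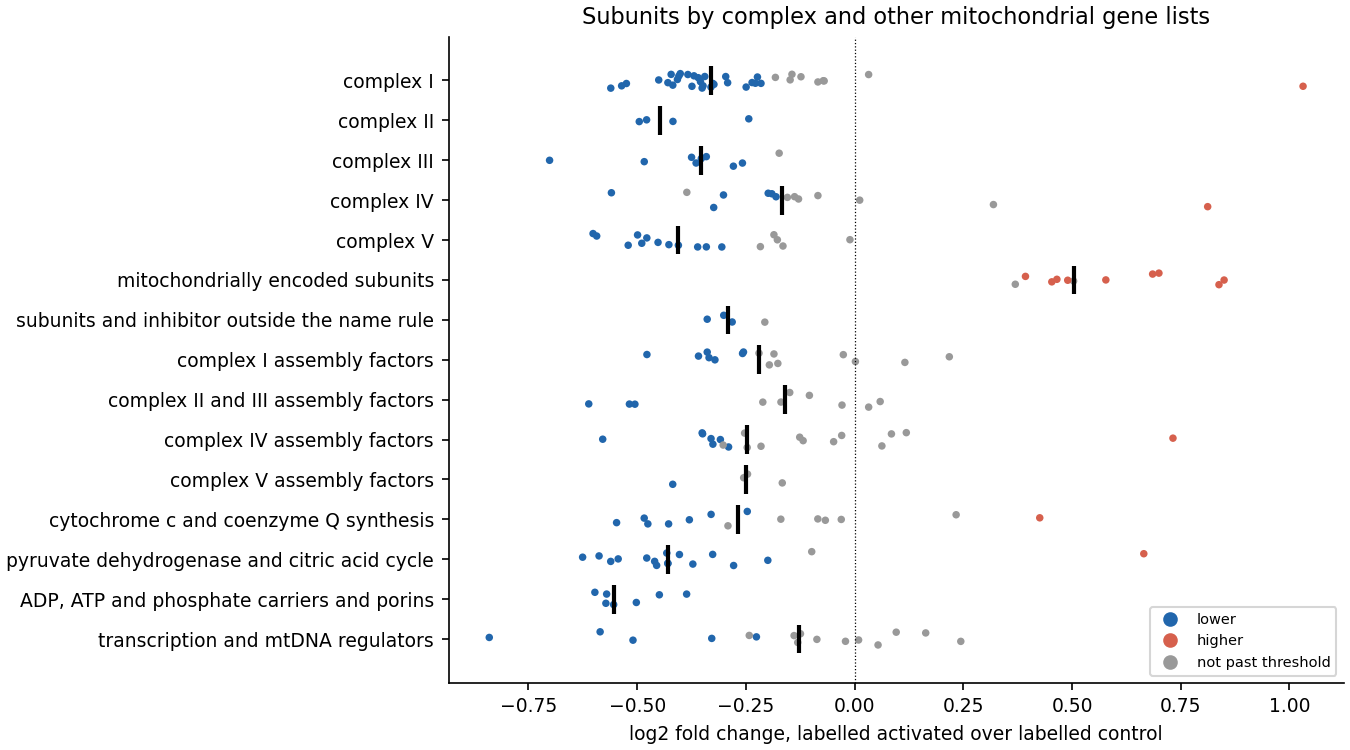
Log2 fold change (activated over control, TMM scaling) of each tested gene, with 1 row for each complex and each list of genes that act with it, a black bar at the median, and blue, red and grey for lower, higher and not past the threshold. The list of carriers and porins, which also holds Ckmt1, was lower in 7 of 7 tested genes and mitochondrially encoded subunits higher in 9 of 11. Of all tested genes, 20.6% were lower and 16.2% higher. Scaling to neuron markers changes the totals over the lists from 55 lower and 12 higher to 14 and 30. Over all 18132 genes tested 649 are then lower and 8740 higher.

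Of the 58 lower members, 45 were lower in all 6 fits that left out a library, and 44 in all settings run other than scaling to neuron markers. Under that scaling 9 stayed lower: Ndufa8, Ndufv2, Sdhd, Uqcrfs1, Cox5a, Atp5a1, Atp5g3, Atp5g1 and Atp5f1. The 10 higher ones were Ndufa4l2, Ndufa1, Ndufa3, Ndufa13, Ndufb4, Cox6b2, Cox6c, Cox7c, Cox8a and Atp5g2. Both groups of names come from 1 fit and were chosen after the values were seen.

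**Figure D5:**
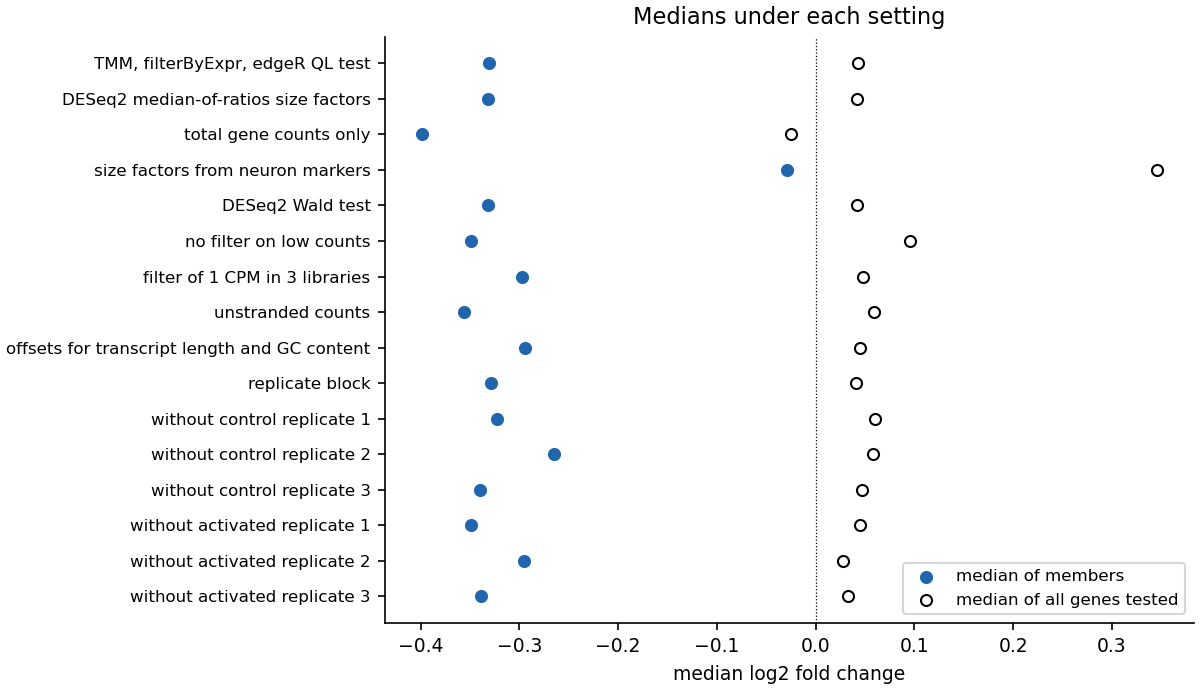
Median log2 fold change (activated over control) of the tested members (filled points) and of all genes tested (open points) in the reported fit, at the top, and in each of 15 alternatives. The members' median stays between -0.40 and -0.27 except with size factors from neuron markers, where it is -0.03 and that of all genes is 0.35.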

How the data were processed

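Strand-specific libraries of ribosome-depleted total RNA from 6 samples, 3 labelled control and 3 labelled activated, were sequenced as paired reads of 150 bases, per the labels' protocols. The submitters' processing notes name STAR 2.5.2b, the mm10 build and edgeR. For the annotation release and alignment settings, the entry is: not given in the sources used here. The deposited files hold raw counts per gene made by the authors, 1 file per sample, with an unstranded column and 1 column per strand. The reverse-strand counts were used, since the opposite strand held 4.05% to 4.29% of the reads of both.

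Lines that name no gene were kept out of library sizes: 25.1% to 37.3% of reads outside annotated exons, 7.49% to 9.88% unmapped, 5.17% to 6.34% multimapping and 0.736% to 0.977% ambiguous. The share outside exons was lowest in control replicate 2 and highest in activated replicate 2, and its part in the member levels was not tested. Paralogues and processed pseudogenes can lose reads to the multimapping class, so levels of near-identical copies are uncertain. Symbols came from GENCODE mouse release M21, which held 55144 of 55385 identifiers. Correlations of log2 CPM within a group were 0.989 to 0.995, and no library was left out.

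Low counts were removed by filterByExpr at a minimum of 10 and a minimum total of 15. The rest were scaled by TMM and compared with the quasi-likelihood test of edgeR 4.0.16 in R 4.3.3, with no covariate and Benjamini-Hochberg adjustment over all 18132 genes at 0.05. The common biological coefficient of variation was 0.0762. Log2 fold changes are activated minus control. The procedure was also run on simulated counts with known fold changes, which does not test the choice of size factors. The members and lists were chosen with earlier results of these data known. Values per library are given for the 3 lowest and 2 highest tested members of each complex, all isoform pairs and the Sdh genes, and for other lists the 2 genes with the smallest p are named. One member is counted but not reported by name here. Exceptions are said to be such where they occur. Alternatives were other size factors (DESeq2 1.42.0, total counts, the excitatory and inhibitory marker lists), the DESeq2 Wald test, a threshold of 1 CPM in 3 libraries or none, offsets for length and GC, unstranded counts, leaving out each library, and a replicate block. GC content was taken from the longest transcript and not, as planned, from merged exons, because no genome sequence was used here. Promoter windows are from RefSeq on GRCm38.p6. Plots used matplotlib 3.10.9.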

Additional observations from a re-analysis of the deposited data

How the results depend on the processing

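With libraries scaled by total gene counts the medians fell to -0.40 over the members, -0.40 in complex I, -0.52 in II, -0.42 in III, and -0.24 in IV, the median log2 fold change of complex V to -0.47, and 10 complex IV genes were lower. With size factors from neuron markers, 649 of all 18132 tested genes were lower and 8740 higher, with a median of 0.35. The members then held 9 lower and 10 higher genes, with a median of -0.029. Complex I held 2 and 5 of these (median -0.029). In II 1 gene was lower (median -0.15), in III 1 (-0.052), in IV 1 with 4 higher (0.13, reversed), and in V 4 with 1 higher (-0.10). Of the other pathway genes 14 were then lower and 30 higher. Of 76 members below 0, 30 were then above 0. Among those given by library and past the threshold in either setting, the genes that reversed were Sdha (0.057), Uqcrq (0.041), Atp5g2 (0.29), Cox4i1 (0.12), Cox6b1 (0.10) and Ndufa4 (0.0041). With unstranded counts 1 member was higher and 0 of complex I, as Ndufa4l2 no longer passed. Marker scaling moved all genes by nearly the same amount: Ndufa8 went from -0.56 to -0.26 and Cox6b2 from 0.81 to 1.12. The median of all tested genes moved likewise, from 0.04 to 0.35. Which members reversed thus follows from how little below 0 they lay in the reported fit. Which size factors are right was not tested.

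Leaving out 1 library at a time gave 47 to 57 lower members and 1 to 2 higher, with a median of -0.35 to -0.27, the upper end without control replicate 2. Medians ran from -0.35 to -0.27 in complex I (0 to 1 higher), -0.49 to -0.34 in II, -0.39 to -0.30 in III, -0.19 to -0.14 in IV with 3 to 6 lower, and -0.45 to -0.38 in V. Lower members numbered 68 with total counts, and 54 to 61 with the DESeq2 settings, the other filters, unstranded counts and the offsets.

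Same-numbered samples of the 2 groups did not deviate together (r of deviations -0.0144, -0.182 and -0.215), and no sample correlated best with its own number. These values cannot show whether same-numbered samples shared a culture or litter. With the replicate number as a block 52 members were lower, the median was -0.33, and 3 complex IV genes were lower, where Cox4i1 (adjusted p 0.0675) and Cox6b1 (0.0613) did not pass with edgeR.

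With 3 libraries a group, members near 1 CPM such as Ndufa4l2 and Cox7a1 have wide errors, and the 9 members with 33 reads or fewer allow no comparison.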

Other observations

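Several members share their locus with other annotated genes. Of the 81 tested, 5 overlap exons of another gene on the same strand: Atp5g2 (Mir688), Atp5o (Donson and a second identifier with the same symbol), Ndufb2, Ndufb8 and Ndufb9 (predicted transcripts). Their counts can therefore leave out reads that STAR set aside as ambiguous. On the opposite strand 26 overlap another gene, 2 of them also among these 5, among them Atp5a1 with Haus1 and Atp5d with Cbarp. Counted on the strand opposite to the gene, 13 members had enough reads to test, of which 2, Ndufs3 and Atp5f1, were lower with edgeR. Ndufs3 and Atp5f1 were also lower on their own strand.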
